A study of Homo sapiens with 6 samples.

Results

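PRKD1, PRKACB and PIK3R3 are human signalling genes that were chosen by the peaks of serine 5-phosphorylated RNA polymerase II (Pol II) listed over them after BMH-21. Their members are the peaks of 4 deposited lists that touch hg19 windows over the genes with 20 kb on either side. The windows held 255 of the 84817 peaks in all 4 lists, namely 193 of 11540 in the BMH-21 Pol II list, 19 of 28798 in the DMSO Pol II list, 6 of 1932 in the BMH-21 RNA polymerase I (Pol I) list and 37 of 42547 in the DMSO Pol I list. The PRKD1 window ran from 30045001 to 30397000 on chromosome 14 (minus strand, 352 kb). The PRKACB window ran from 84543001 to 84705000 on chromosome 1 (plus strand, 162 kb), and the PIK3R3 window from 46505001 to 46599000 on chromosome 1 (minus strand, 94 kb). Window edges are whole kilobases, so distances from a gene's start carry that rounding. The start is that of the window, and other annotated starts exist for these genes. Negative distances lie before the start.

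The chromatin came from LNCaP, an established androgen-responsive prostate cancer cell line. The cells had received 1 µM BMH-21 for 6 h or the solvent DMSO as control. BMH-21, a DNA-intercalating compound, blocks transcription by Pol I. One antibody recognised Pol I and the other Pol II phosphorylated at serine 5 of its repeated C-terminal tail, with 1 library for every combination of antibody and treatment. Without replicates there is no error and no test of any difference, and all counts below describe these libraries. Altered phosphorylation and altered placement of Pol II cannot be told apart. The lists give peaks with a score and no reads, so depth is unknown, and they hold no peak with a score below 50.

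PRKD1 encodes protein kinase D1, a serine/threonine kinase that acts downstream of diacylglycerol and protein kinase C. PRKACB encodes a catalytic subunit of the cyclic AMP-dependent protein kinase, which is released when cyclic AMP binds the regulatory subunits, and the gene is transcribed from several alternative first exons. PIK3R3 encodes a regulatory subunit of phosphoinositide 3-kinase, which has no kinase activity of its own and brings the catalytic subunit to phosphorylated tyrosines. Serine 5 phosphorylation of Pol II is placed early in transcription and is usually concentrated near gene starts.

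The starts of PRKD1 and PRKACB are shown because the lists differed there: a BMH-21 Pol II peak lay over the first, and a DMSO Pol II peak lay at the second. The sequences are RefSeq promoter windows on GRCh38.p14, 300 bases each, of which 250 lie before the annotated start and 50 after it, read in the direction of the gene. For each gene the window of the outermost start is given, at chr14:29927798-29928097 (minus strand) for PRKD1 and chr1:84077829-84078128 (plus strand) for PRKACB. Peak positions are on hg19, so no peak edge was placed within these letters. Capitals mark GGGCGG on either strand (CCGCCC when read from the other), with overlapping matches counted.
PRKD1: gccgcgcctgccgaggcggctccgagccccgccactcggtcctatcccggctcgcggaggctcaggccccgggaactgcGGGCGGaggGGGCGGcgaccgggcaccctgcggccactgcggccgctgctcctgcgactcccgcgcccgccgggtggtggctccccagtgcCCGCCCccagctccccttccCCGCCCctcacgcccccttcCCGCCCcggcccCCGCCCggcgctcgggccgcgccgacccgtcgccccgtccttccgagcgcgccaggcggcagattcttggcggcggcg
PRKACB: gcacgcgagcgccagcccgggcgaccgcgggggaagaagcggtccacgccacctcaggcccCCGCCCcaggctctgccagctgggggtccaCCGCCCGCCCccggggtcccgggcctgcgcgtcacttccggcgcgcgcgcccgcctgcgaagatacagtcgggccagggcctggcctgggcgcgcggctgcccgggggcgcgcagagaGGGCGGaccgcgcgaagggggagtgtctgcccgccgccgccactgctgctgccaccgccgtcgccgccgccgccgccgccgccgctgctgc
The PRKD1 window held 6 such matches and the PRKACB window 4, and at least 1 match was found in 44.9% of 34796 promoter windows of the same length. Their GC contents were 81.7% and 81.3%, against a median of 58.7% over all windows. TATAAA, on either strand, was in neither window and in 11.6% of all, and CCAAT was in neither and in 34.6% of all. These matches are letters in a window and do not show that a factor binds there.

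Pol II peaks after BMH-21 filled most of the first part of PRKD1. They covered 176.47 kb, or 50.1% of the gene, in 136 peaks, whereas the DMSO Pol II list covered 0.399% of it in 2 peaks. PRKACB was 28.1% covered by 20 BMH-21 Pol II peaks, against 3.53% by 8 DMSO Pol II peaks. PIK3R3 was 13.2% covered by 33 BMH-21 Pol II peaks, against 0.759% by 2 DMSO Pol II peaks. Over the whole lists, peaks covered 0.166% of the genome span in BMH-21 Pol II and 0.561% in DMSO Pol II. The BMH-21 and DMSO lists of Pol II share no position, with 0 of 11540 BMH-21 peaks overlapping a DMSO peak, and both skip peak numbers. Peaks common to both treatments may therefore be missing from both lists, and a low DMSO share is not shown to be low occupancy. Because BMH-21 Pol II peaks chose the genes, these shares are a description and support nothing further.

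The form of the signal separated PIK3R3 from the others. A score of 1000 or more was held by 12 of the 136 peaks in PRKD1, 4 of the 20 in PRKACB and 0 of the 33 in PIK3R3, beside 0.945% of all BMH-21 Pol II peaks. A width of 10 kb or more was held by 1 peak in PRKD1, 1 in PRKACB and 0 in PIK3R3, beside 0.156% of the list. The median width was 848 bp in PRKD1, 1075 bp in PRKACB and 327 bp in PIK3R3, beside 269 bp in the whole list. Of 100 kb tiles, 1 of 4 touching PRKD1, 0 of 3 touching PRKACB and 0 of 1 at PIK3R3 were at least 50% covered, beside 0.0566% of tiles genome-wide. The genes were chosen by these peaks, so values above those of the whole list are a description and support nothing further. PIK3R3 therefore held a scatter of narrow peaks with a top score of 221.65, and the name block describes PRKD1 and PRKACB only.

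**Figure D1:**
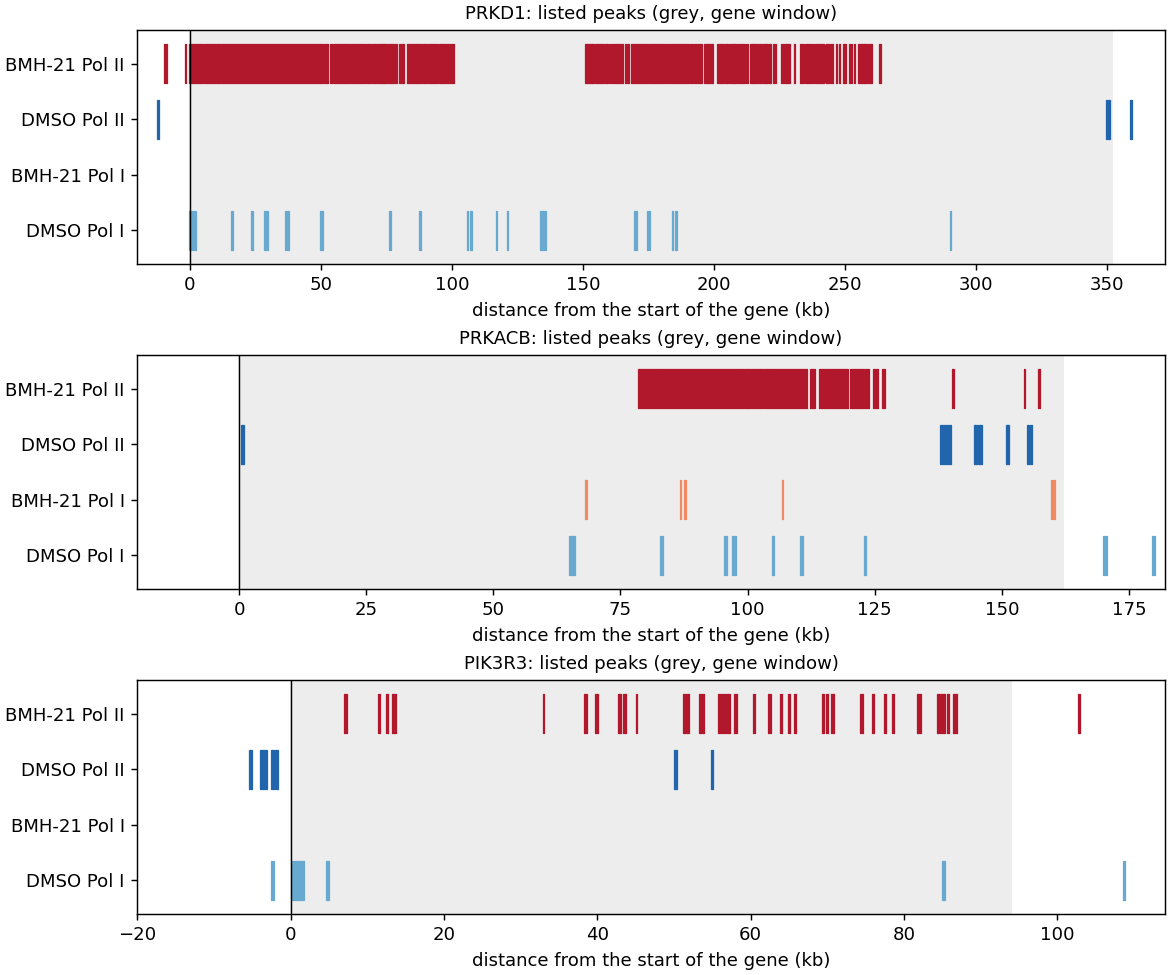
Listed peaks of the 4 lists over PRKD1, PRKACB and PIK3R3, by distance from the start of the gene in kb, with the gene window in grey and 20 kb on both sides. Each bar is 1 peak drawn to scale with a thin outline. The BMH-21 Pol II peaks lie along PRKD1 from its start to 263.7 kb except for 1 stretch, and cover less of it beyond 200 kb. They fill most of PRKACB from 78.45 to 127.07 kb and are scattered in PIK3R3.

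In PRKD1 the BMH-21 Pol II peaks began at the start of the gene. The peak nearest to it ran from 30393470 to 30397327, that is from -0.33 to 3.53 kb, with a score of 1694.12. The highest-scored peak ran from 30354993 to 30370529, 26.47 to 42.01 kb into the gene, was 15537 bp wide and had a score of 3100. It was followed by a peak 5625 bp wide at 19.2 to 24.82 kb with a score of 1929.84. The score of 3100 was also the top score of several other runs of BMH-21 Pol II peaks and the maximum of the BMH-21 Pol I list. In the BMH-21 Pol II list 1 run, on chromosome X, had a higher top score, 3120.65. The score of 3100 is thus not a strict maximum of this list, but its repetition means that it may not be a measured strength. Before the start, 3 further peaks had scores of 58.72 to 68.37 and reached to -9.95 kb.

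The covered share of PRKD1 was highest in the first 50 kb, high again from 150 to 200 kb and lower beyond 200 kb. BMH-21 Pol II peaks covered 96.9% of the first 50 kb, 89.0% from 50 to 100 kb, 1.44% from 100 to 150 kb, 87.0% from 150 to 200 kb, 64.4% from 200 to 250 kb and 14.2% from 250 to 300 kb. No peak was listed beyond 263.7 kb, but the list skipped 97 numbers in the stretch that begins there. The median width was 2328 bp among the 13 peaks of the first 50 kb and 542 bp among the 49 peaks at 200 to 250 kb, and it was 714 bp among the 9 peaks from 250 kb on. The widest peaks of the gene had their midpoints in the first 50 kb.

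**Figure D2:**
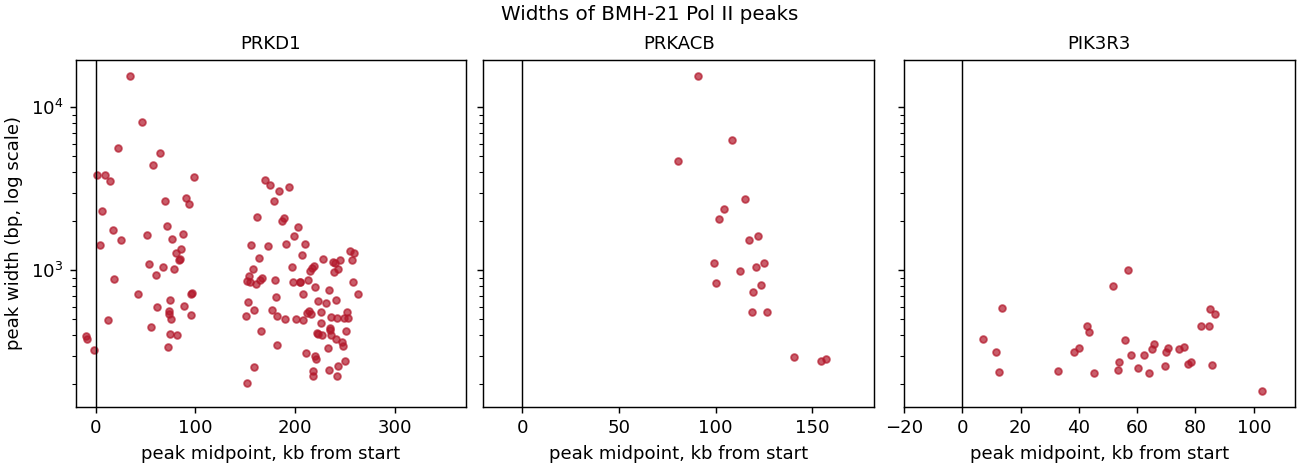
Width in bp (log scale) of each BMH-21 Pol II peak against its midpoint in kb from the start of PRKD1, PRKACB and PIK3R3. The widest peaks of PRKD1 and PRKACB reach 15537 and 15608 bp, and the widest of PIK3R3 is 1011 bp.

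The peaks of PRKD1 formed 2 runs, a run being 10 or more peaks with no gap over 10 kb. The near run went from 30296283 to 30406954, with 47 peaks and 85.9% of its 110.7 kb covered, and the far run from 30133304 to 30246048, with 92 peaks and 73.4% of its 112.7 kb covered. Gaps between neighbouring peaks had a median of 58.5 bp in the near run and 125 bp in the far run. By covered length they ranked 6 and 9 among the 54 runs of the BMH-21 Pol II list, and the far run ranked 3 by number of peaks. These ranks leave out blocks of fewer than 10 peaks. The widest peak of the list, at 133089 bp, was in no run, where the widest was 32498 bp.

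Between the runs of PRKD1 lay 50.2 kb, from 100.72 to 150.95 kb, without a listed BMH-21 Pol II peak. Peak names end in a running number. In the BMH-21 Pol II list 28 of these were skipped exactly there, while it skipped 0 of them within either run. The DMSO Pol II list skipped 12 numbers between its peaks at 30047496 and 30408955, a stretch that spans both runs and the space between them. Skipping was common in the whole lists, at 77.0% of numbers in BMH-21 Pol II and 48.1% in DMSO Pol II. It was 87.7% in BMH-21 Pol I and 23.3% in DMSO Pol I. A skipped number marks a peak that was numbered and is not in the list. The empty 50.2 kb is therefore not shown to lack Pol II after BMH-21, and the empty DMSO Pol II list over the runs is not shown to mean that Pol II was absent with DMSO. Where in its stretch each of the 12 unlisted DMSO peaks lay is not known.

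The few listed DMSO Pol II peaks of PRKD1 stood at the other end of the gene. They ran from 30045997 to 30046778 (score 98.59) and from 30046873 to 30047496 (score 98.49), 349.5 to 351 kb from the start. In the 20 kb beyond the end, 2 more DMSO peaks scored 65.14 and 90.11, and before the start 1 peak at -12.48 to -11.95 kb scored 54.82. BMH-21 Pol II had 0 listed peaks in the 20 kb beyond the end. Its list skipped 97 numbers between 28330415 and 30133304, a stretch that includes the end of PRKD1 and those 20 kb. The lack of BMH-21 Pol II peaks at this end is therefore not established.

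In PRKACB the listed BMH-21 Pol II peaks began far inside the gene. The run went from 84621449 to 84670072, or 78.45 to 127.07 kb, and 91.8% of its 48.6 kb lay under 17 peaks. Its first peak was 4675 bp wide with a score of 1492.18. The next, from 84626143 to 84641750, was 15608 bp wide with a score of 3100, and another large peak, from 84648442 to 84654704, scored 2390.75. Gaps within the run had a median of 74 bp and a maximum of 807 bp. By covered share it ranked 7 of 54 runs, by number of peaks 31.

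**Figure D3:**
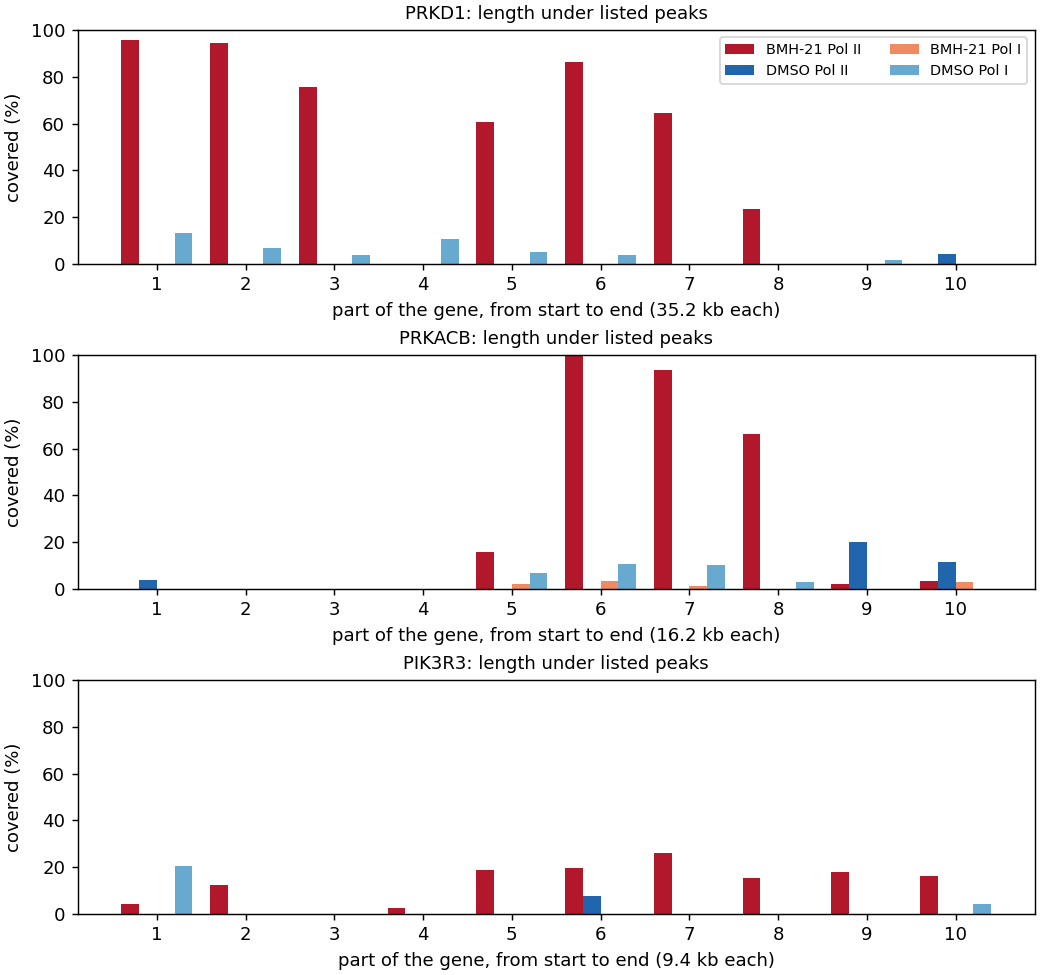
Share of length under listed peaks (%) in 10 equal parts of PRKD1, PRKACB and PIK3R3 from start to end, for the 4 lists. In PRKACB, BMH-21 Pol II covers 99.9% of part 6 and 0% of parts 1 to 4. In PRKD1 it covers 95.8% of part 1 and 0% of part 4, where numbers are skipped.

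No listed DMSO Pol II peak lay within the PRKACB run, and after the run peaks of both treatments alternated. The Pol II lists of the treatments share no position, and BMH-21 peaks covered 91.8% of the run, with gaps of 807 bp at most. The lists thus left little room for a DMSO peak in the run, and elsewhere their peaks could only lie apart. Neither pattern shows a difference between the treatments. After the run, 3 BMH-21 Pol II peaks lay between 140.19 and 157.48 kb with scores of 52.14 to 71.93. The DMSO Pol II list had 1 peak at the start, from 84543277 to 84543915 (0.28 to 0.92 kb, score 148.25), 0 within the run, and 7 from 137.88 to 156 kb. The highest of those 7 ran from 84680884 to 84682911, was 2028 bp wide and scored 298.45.

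Skipped numbers again lay next to the run and not in it. The BMH-21 Pol II list skipped 0 numbers within the PRKACB run, 13 between 84670072 and 84683194 and 3 between 84683487 and 84697329. Both stretches hold DMSO Pol II peaks of the later part of the gene. Upstream, the list skipped 12 numbers between 82274021 and 84621449, a stretch that includes the start of PRKACB, so the lack of a BMH-21 Pol II peak at the start is not established. The DMSO Pol II list skipped 3 numbers between its peak at the start and the one at 84680884, which includes the run.

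PIK3R3 had BMH-21 Pol II peaks along most of its length. Peaks lay from 6.95 to 86.98 kb, and 29 of the 33 formed a run from 46512019 to 46566142 in which 20.1% of 54.1 kb was covered. The gaps had a median of 1193.5 bp, far wider than in the other genes. The highest-scored peak ran from 46541726 to 46542736 (score 221.65), the next from 46547012 to 46547813 (167.33) and the third from 46585243 to 46585833 (132.93). The peak nearest to the start, at 6.95 to 7.33 kb, scored 64.47. By covered share the run ranked 31 of 54. With peaks of score 100 or more only, 6 peaks covering 4.24% of the gene were left.

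The DMSO Pol II peaks of PIK3R3 lay inside the run and before the gene window. In the gene, 1 ran from 46543865 to 46544122 (score 51.85) and 1 from 46548592 to 46549046 (score 86.88). They lay at 54.88 to 55.14 and 49.95 to 50.41 kb, between BMH-21 peaks, which they could not overlap because the lists share no position. Before the start, 4 peaks between -5.47 and -1.67 kb covered 10.4% of the 20 kb, the highest with a score of 167.53. The BMH-21 Pol II list had 0 peaks in those 20 kb. It skipped 5 numbers between 46592046 and 46738175, a stretch that includes the start, so that this absence is not established either. In the RefSeq table PIK3R3 is overlapped by P3R3URF-PIK3R3, a readthrough gene, and peaks cannot be assigned to one or the other.

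**Figure D4:**
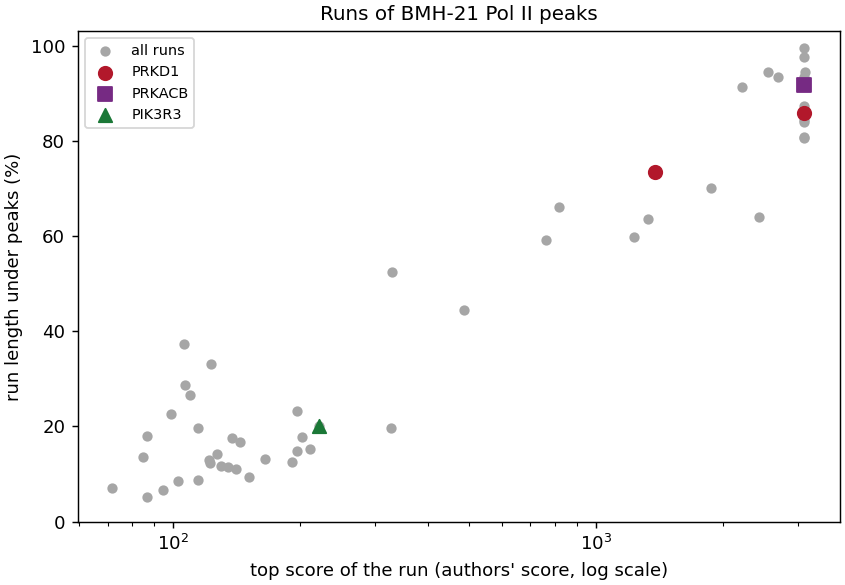
Share of length under peaks (%) against the top score (authors' score, log scale) for all 54 runs of the BMH-21 Pol II list, grey, with the runs of PRKD1, PRKACB and PIK3R3 marked. The PRKD1 and PRKACB runs have top scores of 1380.03 to 3100 and shares of 73.4 to 91.8%, and the PIK3R3 run lies at 221.65 and 20.1%. Several runs share the top score of 3100, which may be a ceiling.

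Set among all runs, PRKD1 and PRKACB belonged with the densely covered ones. In the 20 runs with a top score of 1000 or more the median covered share was 85.7%, and in the rest it was 16.0%. The PRKD1 runs, at 85.9% and 73.4%, and the PRKACB run, at 91.8%, were among those 20, and the PIK3R3 run, at 20.1%, was among the rest. The medians include these runs, and the same peaks had chosen the genes. Their placement is therefore a description and supports nothing further.

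Pol I peaks covered far less of the genes than BMH-21 Pol II peaks did. In the DMSO Pol I list they covered more of each gene than the average of that list. After BMH-21, PRKD1 and PIK3R3 had 0 listed Pol I peaks and PRKACB had 6, covering 0.975% of the gene with scores of 51.45 to 74.91, beside 0.0238% over the whole BMH-21 Pol I list. The 6 peaks came to 3.7 per 100 kb, beside 0.0663 over that list. Even 1 peak in the 162 kb of PRKACB would exceed that average, so being above it says nothing about this gene. With DMSO, Pol I peaks numbered 23 in PRKD1, 7 in PRKACB and 3 in PIK3R3 and covered 4.45%, 2.99% and 2.47%, beside 0.718% over the whole DMSO Pol I list. Their densities were 6.53, 4.32 and 3.19 peaks per 100 kb, beside 1.42 over the list. The BMH-21 Pol I list skipped 35 numbers in the stretch around PRKD1 and 16 in that around PIK3R3. Each of those stretches extends over 1 Mb or more, so the lists do not show that Pol I was absent from these genes after BMH-21.

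The DMSO Pol I peaks of PRKD1 were spread over the runs of BMH-21 Pol II peaks and the space between them. The peak over the start, from 30395788 to 30397174, had the highest score, 298.04, and the next, from 30226436 to 30227477, scored 260.63. Of the 23 peaks, 15 lay in the runs, 7 in the space between them (scores 50.06 to 88.1) and 1 beyond, at 289.98 kb. Each of the 15 in the runs overlapped BMH-21 Pol II peaks, which is 15 of 23 in the gene, beside 2.43% of all DMSO Pol I peaks. The runs took up 60.6% of the gene and their peaks covered 50.1% of it, so the count in the runs was near their share of the length, and no test was made. DMSO Pol I peaks also lay in the 50.2 kb where BMH-21 Pol II numbers were skipped.

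In PRKACB, 3 of the 6 BMH-21 Pol I peaks lay in the run and under BMH-21 Pol II peaks, the highest from 84630488 to 84630795 with a score of 74.91. The others lay at 68.07 kb and near the end, at 159.66 and 160.13 kb. The share of all BMH-21 Pol I peaks that lay under BMH-21 Pol II peaks was not computed. Of the 7 DMSO Pol I peaks, 6 lay in the run and under BMH-21 Pol II peaks, beside 2.43% of all DMSO Pol I peaks. BMH-21 Pol II peaks covered 28.1% of this gene, which they had chosen, and no test was made. The remaining DMSO Pol I peak, from 84607959 to 84609050, had the highest score of that list in the gene, 451.1. It lay at 64.96 kb, before the run. No DMSO Pol I peak was listed at the start of PRKACB, where the DMSO Pol II peak lay, but the list skipped 1 number between 84455091 and 84607959, a stretch that includes the start.

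In PIK3R3 the DMSO Pol I list had its highest peak at the start, from 46597309 to 46598836, 1528 bp wide with a score of 487.81. A smaller peak at 4.61 kb scored 72.33, and another at 85 kb, with a score of 55.67, was the only one of the 3 that overlapped BMH-21 Pol II. PRKD1 and PIK3R3 thus had their leading DMSO Pol I peak at the start, and in PRKACB the leading listed one lay inside the gene. Within the gene windows, 0 of the 23, 7 and 3 DMSO Pol I peaks of PRKD1, PRKACB and PIK3R3 overlapped a DMSO Pol II peak. DMSO Pol II peaks covered only 3.53% or less of each gene. The share over all DMSO Pol I peaks was not computed, so this is not shown to be particular to these genes. Before the start of PIK3R3, a DMSO Pol I peak from 46601151 to 46601546 overlapped the DMSO Pol II peak from 46601217 to 46601553.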

How the data were processed

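Chromatin immunoprecipitation libraries of LNCaP cells were grouped by the sample titles, with 1 library per antibody and treatment. Input libraries were not used here. Each ChIP library has 1 peak list, with a score per peak, as the authors deposited it. The score column is headed as a p-value per the file headers, its scale is not stated, and it was used only within a list. The build was hg19 and the tools named were deepTools 3.5.4, Bowtie2 2.2.1 and CASAVA 1.8.2, per the submitters' processing notes. Peak names begin with MACS, a peak caller. Its version, its settings and the use of the inputs are not stated.

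Starts in the lists were read as zero-based and printed as the first base. A peak belonged to a window it overlapped by 1 bp or more. Covered shares merge the peaks of a list. Skipped numbers were counted between consecutive listed peaks. The interval, run and distance functions were tested on simulated data. No annotation of hg19 was at hand, so exons, other genes of the pathways, marker genes and sequences under peaks are not reported. RefSeq tables on GRCh38.p14 gave promoter windows, matched by symbol for all 3 genes, and names of overlapping genes. The genes and tests were chosen with earlier results of these data known. Peaks named are, per gene and list, the 3 highest-scored, the widest, the nearest to the start and the ends of runs, and others were named after their values were seen. The computations used Python 3.11.15, NumPy 2.4.6, pandas 2.3.3, SciPy 1.17.1 and matplotlib 3.10.9.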

Additional observations from a re-analysis of the deposited data

How the results depend on the processing

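For 12 results 42 alternative values were computed. Of these, 33 lay within 1.5 times the main count or within the exact 95% binomial interval of the main share taken over kilobases, and 9 did not. With scores of 100 or more, PIK3R3 kept 6 BMH-21 Pol II peaks over 4.24% of the gene, and DMSO Pol II peaks numbered 0 in PRKD1, 3 in PRKACB and 0 in PIK3R3. With a width of 300 bp or more, PIK3R3 had 1 DMSO Pol II peak. With 20 kb on both sides, DMSO Pol II peaks numbered 5 at PRKD1 and 6 at PIK3R3. With 20 or more peaks to a run, PRKACB had 0 peaks in runs, because its run has 17. These follow from the peaks each setting leaves or adds. The alternatives reuse the same peaks, and neighbouring kilobases are not independent. The binomial interval is therefore only a yardstick and measures no uncertainty. The covered shares of PRKD1 and PRKACB stayed between 45.4 and 50.1% and between 22.5 and 28.1%. No paired analysis was possible because each group had 1 library. Depth is unknown, a skipped number tells neither where its peak lay nor how it scored, and spread between replicates could not be measured.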

Other observations

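RefSeq lists further start windows for these genes, which were not placed on hg19 here. For PRKACB the table holds 5 windows on GRCh38.p14. The outermost had a GC content of 81.3% and the other 4, all inside the gene, had 33.0%, 35.0%, 34.3% and 32.7%, against a median of 58.7% over 34796 windows. For PIK3R3 the table holds 6 windows with GC contents from 34.0 to 64.0%, and for PRKD1 2 windows with 81.7% and 74.0%. The outermost PIK3R3 window, at chr1:46174852-46175151, lies well before the next, at chr1:46132987-46133286, both on the minus strand. Which of these starts the hg19 window of PIK3R3 begins at was not established. Peaks placed before its start may therefore lie within a longer transcript of the gene.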
